A study of Mus musculus with 20 samples.

Results

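Endothelial tip cell and angiogenesis genes were followed in whole brains of control mice and of mice with severe spinal muscular atrophy (SMA). They comprise 10 genes, found by their symbols among the 45700 genes of the deposited expression table. The tip-cell genes are Aplnr, Apln, Esm1, Angpt2 and Dll4, and the general endothelial genes are Kdr, Flt1, Cdh5, Pecam1 and Tek. With a mean of at least 1 FPKM (fragments scaled to the length of the transcript and to the fragments mapped in the library) over the 20 libraries, 8 of the 10 were among the 15247 genes tested, while Esm1 and Dll4 were below this level at 0.394 and 0.988 FPKM. The genes were chosen with differences between SMA and control brains already known from these libraries, so those differences are given below as a description. For them limma calls appear only as counts beside the share of all tested genes, and nothing is read from these. The lists of other genes described further on were also drawn up with these results known, so their calls are not independent evidence. Only contrasts within control brains did not enter the choice.

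The study asked how loss of the survival motor neuron protein changes the RNA of the brain and the RNA held by ribosomes. SMA mice were of the "Taiwanese" model (Smn-/-; SMN2tg/0) and controls were heterozygous littermates (Smn-/+; SMN2tg/0), all on a congenic FVB background, so the human SMN2 transgene was carried by both groups and the controls were not wild type. Brains were taken at the early-symptomatic stage (P5, 2 replicates per genotype) and at the late-symptomatic stage (P7, 3 replicates per genotype). For each replicate number 1 library was made from total cytoplasmic RNA, pooled over all fractions of a sucrose gradient, and 1 from the polysomal fractions, which gives 20 libraries in 8 groups. The labels name a mouse brain for each library but do not say whether both libraries of a number came from the same brain. The deposited file holds FPKM without counts, so the number of reads behind a single value is unknown and no counting interval can be given.

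During angiogenesis a tip cell leads each growing sprout, answers vascular endothelial growth factor (VEGF) and is followed by stalk cells, with the Notch ligand Dll4 on the tip cell restraining its neighbours. Apelin (Apln) and endocan (Esm1) mark tip cells and are secreted by them, the apelin receptor Aplnr is found on sprouting and venous endothelium, and angiopoietin-2 (Angpt2) loosens the vessel wall through the receptor Tie2, the product of Tek. Brain vessels grow inwards from the covering of the brain before and after birth and at the same time acquire a tight barrier. In whole brain, fewer endothelial cells and less RNA per endothelial cell cannot be told apart.

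The group held members of opposite direction. In SMA brains the receptors Aplnr and Tek were the lowest relative to controls, by 1.61 to 2.49 and by 1.31 to 1.74 on the log2 scale, and the other general endothelial genes were lower by smaller amounts. Apln and Angpt2 were higher in SMA brains at both stages and in both fractions. The mean of the tip-cell genes was higher relative to the mean of the general endothelial genes in SMA, without overlap with controls at either stage or in either fraction, although its most abundant gene, Aplnr, was lower. On its own the tip-cell mean was lower in SMA, with log2 differences of -0.22 to -0.10 and overlap at P7. The relative value thus reflects a smaller decrease than that of the general endothelial mean. Outside the group, 9 of 19 other general endothelial genes were lower in all 4 comparisons at an unadjusted p under 0.05, of which only Erg passed adjustment, in total RNA at P7. Of 12 other tip-cell genes none was called in 1 direction in all 4, but the share of endothelium in their whole-brain levels was not tested.

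The upstream sequences of the ligand that was higher and of 3 receptors that were lower are shown to give the stretch of the genome in front of members that differed in opposite directions. Each is the 250 bases before the start of the RefSeq transcript (GRCm38.p6, 5′ to 3′ on the strand of the gene), and capitals mark the matches described below. RefSeq windows were matched by symbol for 6 of the 10 genes.
Apln (chrX:48034854-48035103, minus strand): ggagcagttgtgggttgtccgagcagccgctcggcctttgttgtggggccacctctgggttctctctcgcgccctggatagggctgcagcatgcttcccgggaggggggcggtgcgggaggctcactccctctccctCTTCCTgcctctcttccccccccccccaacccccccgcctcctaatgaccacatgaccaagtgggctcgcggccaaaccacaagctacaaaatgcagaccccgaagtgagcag
Kdr (chr5:75978456-75978705, minus strand): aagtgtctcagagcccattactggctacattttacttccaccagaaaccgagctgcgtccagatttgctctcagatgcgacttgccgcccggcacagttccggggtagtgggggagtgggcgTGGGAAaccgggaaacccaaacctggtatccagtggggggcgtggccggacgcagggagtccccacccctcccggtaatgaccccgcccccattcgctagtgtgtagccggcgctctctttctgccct
Flt1 (chr5:147726012-147726261, minus strand): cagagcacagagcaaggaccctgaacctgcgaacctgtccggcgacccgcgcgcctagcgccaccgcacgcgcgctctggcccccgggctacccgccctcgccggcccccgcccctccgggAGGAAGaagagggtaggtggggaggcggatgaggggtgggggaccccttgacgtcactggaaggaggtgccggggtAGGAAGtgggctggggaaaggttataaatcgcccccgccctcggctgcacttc
Tek (chr4:94739039-94739288, plus strand): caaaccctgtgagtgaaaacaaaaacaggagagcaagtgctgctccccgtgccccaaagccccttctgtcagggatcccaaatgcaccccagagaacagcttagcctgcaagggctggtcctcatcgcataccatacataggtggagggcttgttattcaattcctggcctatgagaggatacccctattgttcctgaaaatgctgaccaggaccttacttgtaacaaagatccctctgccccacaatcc
On either strand of these windows, the letters AGGAAG were found in Apln and Flt1 and thus in 2 of the 6 windows. They are a form of the motif bound by ETS factors, which control many endothelial genes, and shorter forms were not counted. The same letters were found in 29.5% of all 32851 upstream windows of that length. TGGGAA, bound by the Notch effector RBPJ, was found in Kdr and thus in 1 of 6 windows against 21.6% of all windows. ACGTG, a form of the hypoxia response core, was in none of the 6 windows and in 16.6% of all windows. Other forms of these motifs were not searched, so a window without a match may still hold another form. Such matches describe letters and are not evidence of binding. The letters did not separate the gene that was higher from those that were lower.

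Aplnr (ENSMUSG00000044338.9), the receptor of apelin, lies on the plus strand of chromosome 2 (GRCm38, 85136225 to 85139923), and its main transcript is a single exon of 3699 bases. The study listed a primer pair for this gene, printed here because Aplnr had the largest difference of the 10 genes.
Aplnr forward primer: gccattctcaaagcagccag
Aplnr reverse primer: ggtgaggaaaagctgcctct
The primers lie at 85139736 to 85139755 and at 85139819 to 85139838 of chromosome 2, in the 3′ UTR of the main transcript, and span 103 bases. FPKM, in contrast, is drawn from the whole gene. At P5 the Aplnr level in total RNA was 10.41 and 11.87 FPKM in the 2 control libraries and 1.87 and 1.93 FPKM in the 2 SMA libraries. In polysomal RNA it was 10.28 and 12.46 FPKM in controls and 2.69 and 1.61 FPKM in SMA. Both fractions thus showed controls above 10 FPKM and SMA below 3 FPKM, and the difference of log2 levels was -2.49 ± 0.13 (SE) in total and -2.39 ± 0.32 in polysomal RNA.

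At P7 Aplnr was at 12.33, 13.24 and 16.80 FPKM in total RNA of controls and at 3.53, 3.40 and 4.75 FPKM in SMA. In polysomal RNA the controls had 10.18, 10.09 and 19.85 FPKM, and the SMA brains had 3.02, 8.36 and 2.67 FPKM. The groups did not overlap, but SMA replicate 2 of the polysomal libraries was close to the lower 2 controls, and control replicate 3 was well above the others. The log2 differences were -1.84 ± 0.18 and -1.61 ± 0.53. Without SMA replicate 2 the polysomal difference was -2.12, and without control replicate 3 it was -1.29.

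Apln (ENSMUSG00000037010.7, chromosome X, 48025146 to 48034853, minus strand) encodes the ligand of this receptor. At P5 it was at 4.65 and 4.28 FPKM in total RNA of controls and at 6.68 and 6.57 FPKM in SMA, and in polysomal RNA at 6.06 and 5.59 FPKM in controls and at 9.63 and 7.96 FPKM in SMA. At P7 total RNA had 5.12, 4.79 and 5.52 FPKM in controls and 6.41, 6.86 and 5.57 FPKM in SMA. Polysomal RNA at P7 had 5.92, 5.66 and 5.37 FPKM in controls and 8.15, 7.69 and 6.23 FPKM in SMA. All SMA libraries were above all controls of their stage and fraction, with the smallest gap, 5.57 against 5.52 FPKM, in total RNA at P7. The log2 differences were 0.56 ± 0.12 and 0.58 ± 0.16 at P5 and 0.28 ± 0.11 and 0.37 ± 0.12 at P7 (SE, total and polysomal).

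Angpt2 (ENSMUSG00000031465.6, chromosome 8, 18690263 to 18741562, minus strand) encodes the angiopoietin that antagonises Tie2 in most vessels. Its levels in total RNA were 1.39 and 1.21 FPKM in controls and 2.16 and 2.08 FPKM in SMA at P5, and 0.97, 0.95 and 0.94 FPKM in controls and 2.13, 1.54 and 1.53 FPKM in SMA at P7. In polysomal RNA they were 2.29 and 1.58 FPKM in controls and 2.90 and 3.39 FPKM in SMA at P5, and 1.10, 0.99 and 1.29 FPKM in controls and 1.80, 2.35 and 1.52 FPKM in SMA at P7. The groups did not overlap in any of the 4 settings, and the log2 differences lay between 0.67 and 0.78. Angpt2 lies inside Mcph1, a gene of chromosome condensation on the opposite strand (mean 5.92 FPKM), and although the library kit keeps the strand, the study's methods state default settings, with which TopHat and Cufflinks do not use the strand of the kit, so the split of reads between both genes is uncertain. Mcph1 itself was at 6.46 ± 0.0707 FPKM in controls and 7.30 ± 1.80 FPKM in SMA in total RNA at P5 (SD, n = 2), and at 5.87 ± 0.786 and 5.88 ± 0.389 FPKM at P7 (SD, n = 3), with log2 differences between -0.02 and 0.15 over the 4 comparisons, where limma did not call it.

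The remaining tip-cell genes were scarce. Esm1 (ENSMUSG00000042379.8), which encodes endocan, ranged from 0.16 to 0.52 FPKM over the 10 control libraries and from 0.32 to 0.65 FPKM over the 10 SMA libraries. All SMA libraries were above all controls in total RNA at P5 and in polysomal RNA at P7, and the groups overlapped or touched in the other comparisons. Fitted without the filter on low values, its log2 differences were 0.40 ± 0.28 and 0.06 ± 0.30 at P5 and 0.55 ± 0.27 and 0.72 ± 0.17 at P7. Dll4 (ENSMUSG00000027314.6) ranged from 0.83 to 1.76 FPKM in controls and from 0.50 to 1.36 FPKM in SMA, and only in polysomal RNA at P7 did the groups not overlap, with 1.4, 1.04 and 0.87 FPKM in controls and 0.61, 0.84 and 0.56 FPKM in SMA. Its log2 differences were -0.24 ± 0.28, 0.01 ± 0.19, -0.46 ± 0.29 and -0.64 ± 0.25 in the same order.

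Tek (ENSMUSG00000006386.13, chromosome 4, 94739289 to 94874976, plus strand) encodes Tie2, the receptor of the angiopoietins. At P5 it was at 3.83 and 4.89 FPKM in total RNA of controls and at 1.60 and 0.94 FPKM in SMA, and in polysomal RNA at 5.42 and 4.97 FPKM in controls and at 2.08 and 1.41 FPKM in SMA. At P7 the total libraries had 2.74, 3.30 and 3.80 FPKM in controls and 1.00, 0.97 and 0.93 FPKM in SMA, and the polysomal libraries had 2.89, 3.51 and 4.26 FPKM in controls and 1.67, 1.27 and 1.17 FPKM in SMA. Every SMA library was below every control library of its stage and fraction, and the 3 SMA libraries of total RNA at P7 differed by less than 0.1 FPKM. The log2 differences were -1.74 ± 0.33 and -1.54 ± 0.24 at P5 and -1.65 ± 0.13 and -1.31 ± 0.20 at P7.

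Cdh5 (ENSMUSG00000031871.8), which encodes the cadherin of endothelial junctions, had 3.55 and 3.6 FPKM in controls and 2.42 and 1.68 FPKM in SMA in total RNA at P5, and 3.63, 4.12 and 5.52 FPKM in controls and 2.16, 3.09 and 2.33 FPKM in SMA at P7. Its polysomal levels were 3.13 and 3.24 FPKM against 1.80 and 2.21 FPKM at P5 and 4.79, 4.92 and 5.65 FPKM against 2.30, 2.99 and 2.71 FPKM at P7 (controls first). SMA was lower without overlap throughout, with log2 differences of -0.80 ± 0.22, -0.65 ± 0.16, -0.78 ± 0.21 and -0.92 ± 0.13 in total and polysomal RNA at P5 and then at P7. Pecam1 (ENSMUSG00000020717.17), an adhesion molecule of endothelium and platelets, ranged from 5.27 to 10.80 FPKM in controls and from 3.52 to 5.75 FPKM in SMA, with log2 differences between -0.63 and -0.45.

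Both VEGF receptors were lower in SMA as well. Kdr (ENSMUSG00000062960.8), which encodes the main signalling receptor VEGFR2, was at 5.67 and 6.19 FPKM in controls and 4.23 and 4.27 FPKM in SMA in total RNA at P5, and at 4.16, 4.61 and 5.21 FPKM in controls and 2.73, 3.56 and 2.69 FPKM in SMA at P7. Its polysomal levels were 6.60 and 6.50 FPKM in controls and 4.72 and 4.65 FPKM in SMA at P5, and 4.62, 5.15 and 5.86 FPKM in controls and 3.14, 3.86 and 2.70 FPKM in SMA at P7. SMA was below control without overlap in each setting, and the log2 differences were -0.47 ± 0.12 and -0.47 ± 0.12 at P5 and -0.63 ± 0.15 and -0.68 ± 0.17 at P7. Flt1 (ENSMUSG00000029648.11), the VEGFR1 gene whose soluble product traps VEGF, ranged from 2.45 to 3.71 FPKM in controls and from 1.60 to 2.60 FPKM in SMA, and its log2 differences lay between -0.55 and -0.32, again without overlap within a stage and fraction.

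**Figure D1:**
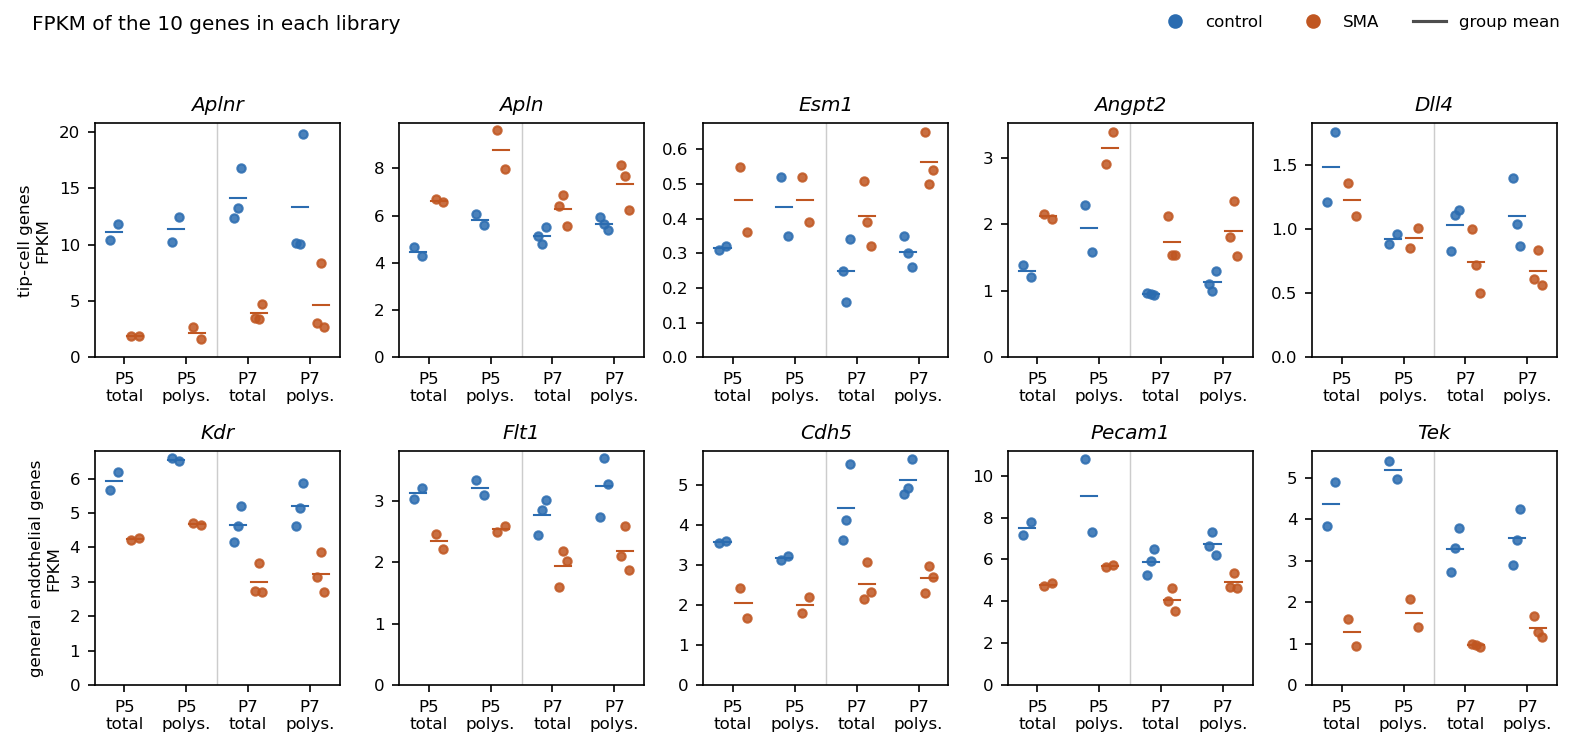
FPKM (y axis, linear, from 0) of the 10 genes in each library by stage and fraction (x axis), with blue points for control, orange points for SMA and lines for group means (2 libraries per group at P5, 3 at P7). Aplnr and the 5 general endothelial genes are lower in every SMA group, Apln and Angpt2 are higher, and the polysomal SMA library at P7 with 8.36 FPKM of Aplnr stands above the other 2 SMA libraries.

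Without overlap between the genotypes, 3 of the 10 genes were above and 6 below control in total RNA at P5, against 25.1% and 22.5% of all tested genes. The counts were 2 above and 6 below in polysomal RNA at P5, against 23.9% and 26.6%, and 2 above and 6 below in total RNA at P7, against 7.63% and 7.37%. In polysomal RNA at P7 they were 3 above and 7 below, against 7.86% and 8.24%. Of the 8 members tested, limma gave an unadjusted p under 0.05 for 8, 5, 8 and 8 in the 4 comparisons in the same order, where 8.25%, 12.5%, 9.54% and 10.7% of all tested genes passed. After adjustment 1 member passed, a general endothelial gene in total RNA at P7, and none in the other comparisons. Of all tested genes 0.164%, 0.649%, 0.111% and 0.0918% passed adjustment. Since the members were chosen on this contrast, nothing is read from these counts.

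**Figure D2:**
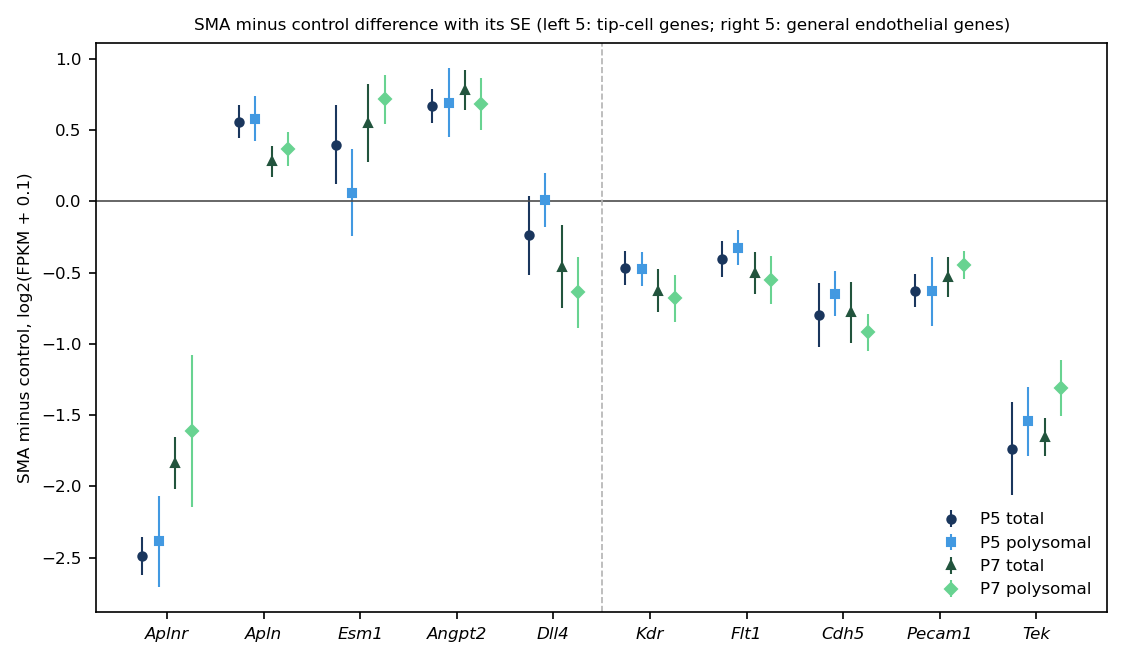
SMA minus control difference (y axis, log2(FPKM + 0.1)) with its standard error for each of the 10 genes (x axis) in the 4 comparisons (marker and colour), Esm1 and Dll4 from the fit without a filter on low values. Aplnr (-2.49 to -1.61) and Tek (-1.74 to -1.31) lie lowest, and Apln (0.28 to 0.58) and Angpt2 (0.67 to 0.78) lie above 0 throughout.

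The order of levels within a library differed between the genotypes. In total RNA of controls at P7, Aplnr led with 14.1 ± 2.36 FPKM (SD, n = 3), followed by Pecam1 at 5.89 ± 0.615, Apln at 5.14 ± 0.366, Kdr at 4.66 ± 0.527 and Cdh5 at 4.42 ± 0.981 FPKM. Neighbours from Pecam1 to Cdh5 overlapped. Tek, at 3.28 ± 0.530 FPKM, overlapped with Cdh5 above it and with Flt1, at 2.77 ± 0.293 FPKM, below it. In total RNA of SMA at P7, Apln led with 6.28 ± 0.655 FPKM and did not overlap with Pecam1 at 4.06 ± 0.556 FPKM, which in turn overlapped with Aplnr at 3.89 ± 0.745 FPKM. Tek, at 0.967 ± 0.0351 FPKM, was below Angpt2 at 1.73 ± 0.344 FPKM in SMA and above it in controls, where Angpt2 was at 0.953 ± 0.0153 FPKM.

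The ratios of ligand to receptor summarise this reversal. The ratio of Apln to Aplnr FPKM was 0.447 and 0.361 in total RNA of controls at P5 and 3.57 and 3.40 in SMA. At P7 it was 0.415, 0.362 and 0.329 in controls and 1.82, 2.02 and 1.17 in SMA. In polysomal RNA the means were 0.519 ± 0.0996 in controls and 4.26 ± 0.965 in SMA at P5 (SD, n = 2), and 0.471 ± 0.174 and 1.98 ± 0.940 at P7 (SD, n = 3). Apln FPKM exceeded Aplnr FPKM in 9 of 10 SMA libraries and in none of the 10 controls. The exception was polysomal SMA replicate 2 at P7, at 0.920, which was still above every control library of its group. The ratio of Angpt2 to Tek was between 0.247 and 0.423 in controls and between 1.08 and 2.40 in SMA, so Angpt2 FPKM exceeded Tek FPKM in all 10 SMA libraries. The uncertain split of reads between Angpt2 and Mcph1 applies to this ratio. Both are ratios of RNA levels and do not give amounts of ligand or receptor protein.

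Against the mean of the 5 general endothelial genes, the mean of the 5 tip-cell genes was -1.14 ± 0.0367 on the log2 scale in total RNA of controls at P5 and -0.552 ± 0.0676 in SMA (SD, n = 2). At P7 it was -1.07 ± 0.104 in controls and -0.387 ± 0.265 in SMA (SD, n = 3). The SMA minus control difference was 0.59 and 0.52 in total and polysomal RNA at P5 and 0.68 and 0.69 at P7, without overlap in any of the 4. Esm1 and Dll4 are scarce, and with a pseudocount of 1 in place of 0.1 the differences were 0.389, 0.3895, 0.416 and 0.464. The mean of the tip-cell genes on its own was lower in SMA by 0.10 to 0.22 and overlapped with controls at P7, while the mean of the general endothelial genes was lower by 0.72 to 0.82. Aplnr went the other way, with a difference of -1.68, -1.66, -1.02 and -0.83 relative to the general endothelial mean, and only the last overlapped between genotypes. The other 4 tip-cell genes without Aplnr gave 1.15, 1.06, 1.11 and 1.07. Among the general endothelial genes, Tek was lower relative to their common mean in each comparison, by 0.53 to 0.93.

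**Figure D3:**
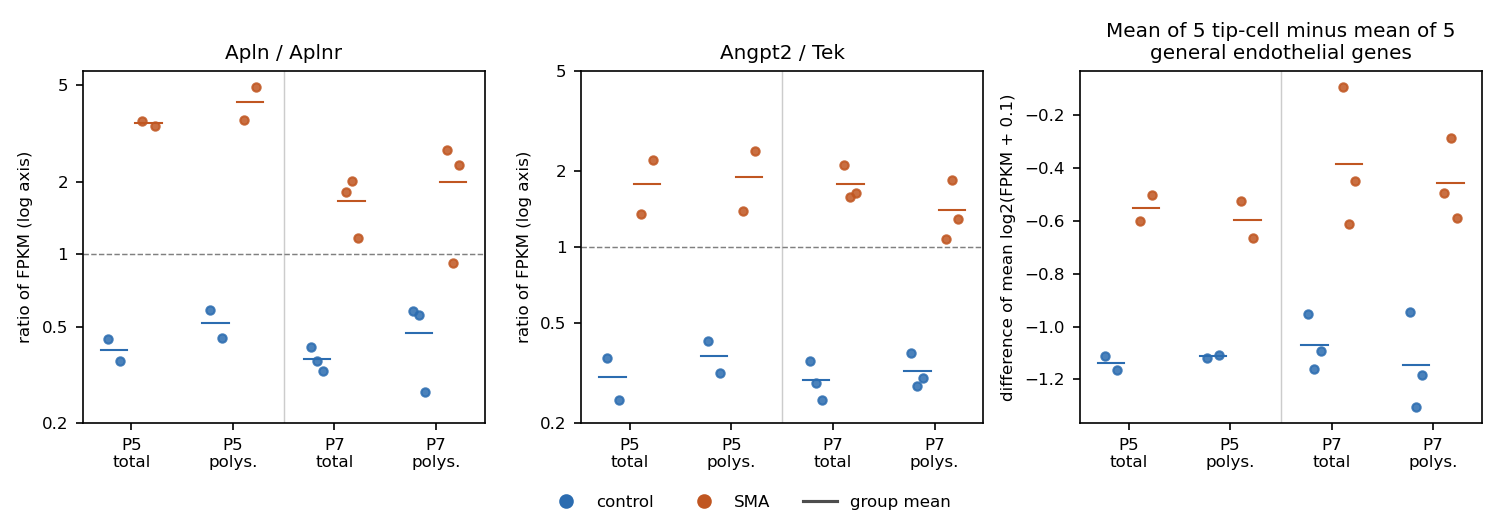
Left and middle, ratio of Apln to Aplnr and of Angpt2 to Tek FPKM (y axis, log scale, dashed line at 1), and right, mean log2(FPKM + 0.1) of the 5 tip-cell genes minus that of the 5 general endothelial genes, in each library by stage and fraction, blue for control, orange for SMA, lines for group means. SMA libraries lie above control libraries in all 3 panels, and 1 SMA library lies below a ratio of 1 for Apln to Aplnr, at 0.920.

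Contrasts within control brains, which did not enter the choice of the genes, were tested with limma. Between fractions of control brains, Apln was higher in polysomal than in total RNA at P5 by 0.38 ± 0.12 (SE, Benjamini-Hochberg adjusted p = 0.193), a call at an unadjusted p just under 0.05 and the only one among the members in this fit. With the replicate number as a block the call was lost, and Angpt2 (0.52 ± 0.14, adjusted p = 0.243) was called instead. Of all tested genes 25.9% passed it and 1.32% passed adjustment. At P7 none of the 8 members passed, against 25.3% of all tested genes. The members' polysomal levels at P7 differed from total levels by -0.14 to 0.22, and the median over all tested genes was 0.05.

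From P5 to P7 in control brains, Angpt2 was lower in total RNA by a log2 difference of -0.41 ± 0.08 (adjusted p = 0.0372) and in polysomal RNA by -0.72 ± 0.20 (adjusted p = 0.0724). Total RNA held 1.39 and 1.21 FPKM of Angpt2 at P5 and 0.94 to 0.97 FPKM at P7, so the ages did not overlap. The call in total RNA was lost in 1 model over all 20 libraries and with a transcript length correction, and that in polysomal RNA without control replicate 1 of P5, where the difference was -0.46, or without control replicate 1 or 2 of P7. Cdh5 was higher at P7 in polysomal RNA by 0.66 ± 0.12 (adjusted p = 0.0360), with 3.13 and 3.24 FPKM at P5 and 4.79 to 5.65 FPKM at P7, while its difference in total RNA was 0.28 ± 0.21 (adjusted p = 0.371). Pecam1 in total RNA (-0.34 ± 0.12, adjusted p = 0.115) and Tek in polysomal RNA (-0.55 ± 0.20, adjusted p = 0.112) passed only without adjustment, and leaving out either P5 control, or P7 control 1 or 2, ended both calls. A transcript length correction also ended the call of Pecam1, and fitting without the filter on low values ended that of Tek. The 2 calls of 8 in total and 3 of 8 in polysomal RNA stand beside 40.3% and 42% of all tested genes, so the members' shares were near the background. With adjustment 1 member passed in each fraction, beside 21.2% and 20.6% of all tested genes. Neither adjusted call was stable, since leaving out any 1 P7 control gave adjusted p = 0.0729 to 0.104 for Angpt2 and 0.0873 to 0.110 for Cdh5. Without the filter on low values they were 0.19 and 0.0633. The difference of Cdh5 itself was 0.55 to 0.71 under every alternative. Its adjusted p in limma was 0.0133 to 0.0339 with a pseudocount of 1, equal medians, 1 model over all 20 libraries or a transcript length correction. With equal medians the adjusted p of Angpt2 was 0.0697. Aplnr differed between the ages of control brains by 0.33 ± 0.16 in total and 0.16 ± 0.36 in polysomal RNA, neither called. The polysomal value turned to -0.16 ± 0.14 without control replicate 3 of P7, the library with 19.85 FPKM, so no direction is given for it.

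Polysomal and total RNA were compared for their difference between genotypes by the interaction of genotype and fraction. This and the interaction of genotype and stage are built from the differences on which the genes were chosen, so their calls are a description. No member passed an unadjusted p of 0.05 with limma at P5 or at P7, where 2.32% and 2.07% of all tested genes did, and the adjusted p of each member was 1. With the replicate number as a block, Tek alone passed the unadjusted threshold at P7 (0.34 ± 0.13, adjusted p = 0.959). The interaction estimates of the 8 members lay between -0.01 and 0.19 at P5, with SE of 0.12 to 0.43, and between -0.14 and 0.34 at P7, with SE of 0.16 to 0.59. For Aplnr they were 0.10 ± 0.35 and 0.22 ± 0.59. They turned to -0.27 without SMA replicate 1 of P5 and to -0.37 without SMA replicate 2 of P7. All 8 members turned direction under at least 1 alternative at P5, and 4, with Aplnr among them, did at P7. No direction is therefore given for any member at P5 or for those 4 at P7. The interaction of genotype and stage gave 1 call of 8 in total RNA, against 10.1% of all tested genes, and none in polysomal RNA, against 13.7%. That call was Aplnr, whose SMA minus control difference was smaller at P7 than at P5 by 0.65 ± 0.25 (adjusted p = 0.486), and it did not pass adjustment, which 0.125% of all tested genes did. The call was lost in 1 model over all 20 libraries, with a pseudocount of 1 and in 5 of the 10 fits that left out 1 replicate. In polysomal RNA the same estimate was 0.77 ± 0.76 (adjusted p = 0.649).

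Other genes of endothelium were described for comparison. Of 22 other general endothelial genes 19 were tested, and each of the 4 comparisons had 12 with a lower level in SMA (unadjusted p under 0.05), not the same 12 throughout, and none higher, against 3.89% and 6.82% of all tested genes at P5 and 4.7% and 5.38% at P7 (total and polysomal). Their median log2 differences were -0.80, -0.76, -0.65 and -0.59, with medians over all genes of 0.01 or closer to 0. In all 4 comparisons 9 of the 19 were called lower: Tie1, the sister receptor of Tie2, the transcription factors Erg, Fli1 and Sox18, the membrane proteins Esam, Eng, Ecscr and Clec14a, and Cd93. Tie1 was at 3.77 ± 0.304 FPKM in controls and 1.55 ± 0.219 FPKM in SMA in total RNA at P5 (SD, n = 2) and at 2.75 ± 0.334 and 1.14 ± 0.215 FPKM at P7 (SD, n = 3), with log2 differences of -1.23 and -1.20. Few of these calls held over all genes tested, since after adjustment 0.164%, 0.649%, 0.111% and 0.0918% of all tested genes were called in the 4 comparisons. Of the 19 only Erg was among them, in total RNA at P7 (-1.29 ± 0.08, adjusted p = 0.0201). At P5 the count of 12 depended on single libraries, with 6 in total and 6 in polysomal RNA without control replicate 1, 7 in total RNA without control replicate 2 and 7 in polysomal RNA without SMA replicate 2.

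Other endothelial genes of the list were called in some comparisons or in none. S1pr1, the sphingosine phosphate receptor and the second most abundant gene of that list, was at 13.3 ± 0.120 FPKM in controls and 12.4 ± 0.594 FPKM in SMA in total RNA at P5, and at 19.8 ± 0.400 and 18.0 ± 2.81 FPKM at P7, and was called in no comparison. Cd34 was called in 1 of 4 comparisons, with log2 differences from -0.53 to -0.14, and Egfl7, the most abundant of the list, in 3 of 4, with -0.91, -0.82, -0.03 and -0.43. Emcn and Rasip1 were called in none, with values between -0.09 and 0.37 and between -0.21 and 0.02. These genes were named after their values were seen, except Egfl7, S1pr1 and Cd34, which were the most abundant.

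Of 14 other tip-cell genes 12 were tested, and 1, 1, 1 and 2 were called higher and 1, 2, 2 and 2 lower in total and polysomal RNA at P5 and then at P7, beside 4.36%, 5.65%, 4.84% and 5.35% of all tested genes higher and 3.89%, 6.82%, 4.7% and 5.38% lower. Their median differences were -0.11, 0.01, -0.10 and -0.07, and none was called in 1 direction in all 4 comparisons. Igfbp3, a growth factor binding protein, was called higher in 3 of 4, with log2 differences of 0.45, 0.49, 0.64 and 0.70. It was at 8.74 ± 0.861 FPKM in controls and 13.7 ± 0.481 FPKM in SMA in total RNA at P7. Rgcc, a cell cycle regulator, was called lower in 3 of 4, and Unc5b, a netrin receptor of tip cells, in the polysomal RNA of both stages. Lxn and Trp53i11, the most abundant of the list, were each called once. The share of endothelium in the whole-brain levels of this list was not tested.

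Ligands of the VEGF and angiopoietin families other than Angpt2 were not called in most comparisons. Vegfa was at 19.5 ± 1.55 FPKM in controls and 20.3 ± 2.29 FPKM in SMA in total RNA at P5, and at 17.8 ± 1.09 and 17.04 ± 1.395 FPKM at P7, with log2 differences between -0.06 and 0.26 and no call. Vegfb and Angpt1, the agonist of Tie2, gave no call either. Nrp2, a VEGF co-receptor that neurons also carry, was called higher in 3 of 4 comparisons, by 0.47, 0.40 and 0.19. Over the 7 tested genes of this list, 1, 1, 2 and 0 were called higher and 1, 1, 2 and 1 lower. The lower call in each comparison was the receptor Tie1, already counted among the other general endothelial genes. In total RNA at P7 the ligand Vegfc was called lower as well (-0.41). Of all tested genes 4.36%, 5.65%, 4.84% and 5.35% were called higher and 3.89%, 6.82%, 4.7% and 5.38% lower.

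In the Notch list, 13 genes were tested and none was called in total RNA at either stage, where 8.25% and 9.54% of all tested genes were. In polysomal RNA 3 were called lower at P5 and 2 at P7, among them Hes1 and Mfng at both stages. Notch4 was called higher at P5 only (1.34). Of all tested genes 6.82% and 5.38% were called lower in polysomal RNA at P5 and P7, and 5.65% higher at P5. The abundant genes Efnb2, Hey1 and Lfng were called in no comparison. Of 9 genes of the hypoxia response none was called higher in any comparison, beside 4.36% to 5.65% of all tested genes. Of the 9, 1, Bnip3, was called lower in polysomal RNA at P5 (-0.29), while Ndrg1 and Pdk1 were not called.

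Barrier genes of brain endothelium were divided. Cldn5, the main claudin of the tight junction, was at 48.3 ± 6.48 FPKM in controls and 18.7 ± 0.233 FPKM in SMA in total RNA at P5 (SD, n = 2) and at 30.2 ± 4.25 and 14.6 ± 0.756 FPKM at P7 (SD, n = 3), with log2 differences of -1.36, -1.62, -1.03 and -1.01. Slc38a5, an amino acid transporter, had the largest differences of the list, -1.94, -2.21, -1.67 and -2.02, and the organic anion transporter Slco1c1 differed by -0.89, -0.93, -0.79 and -0.90. Slco1c1 passed adjustment at P7 (adjusted p = 0.0211 and 0.0483). Slc2a1, the glucose transporter, was called in no comparison, at 0.10 to 0.25, and Mfsd2a, the lipid transporter, only in polysomal RNA at P7, where it was higher by 0.29. Over the 10 tested barrier genes, 4, 4, 4 and 5 were called lower and 0, 0, 0 and 1 higher. Of all tested genes 3.89%, 6.82%, 4.7% and 5.38% were called lower and 4.36%, 5.65%, 4.84% and 5.35% higher. Plvap, which marks fenestrated vessels, was higher by 0.24 in polysomal RNA at P7 and was not called elsewhere.

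**Figure D4:**
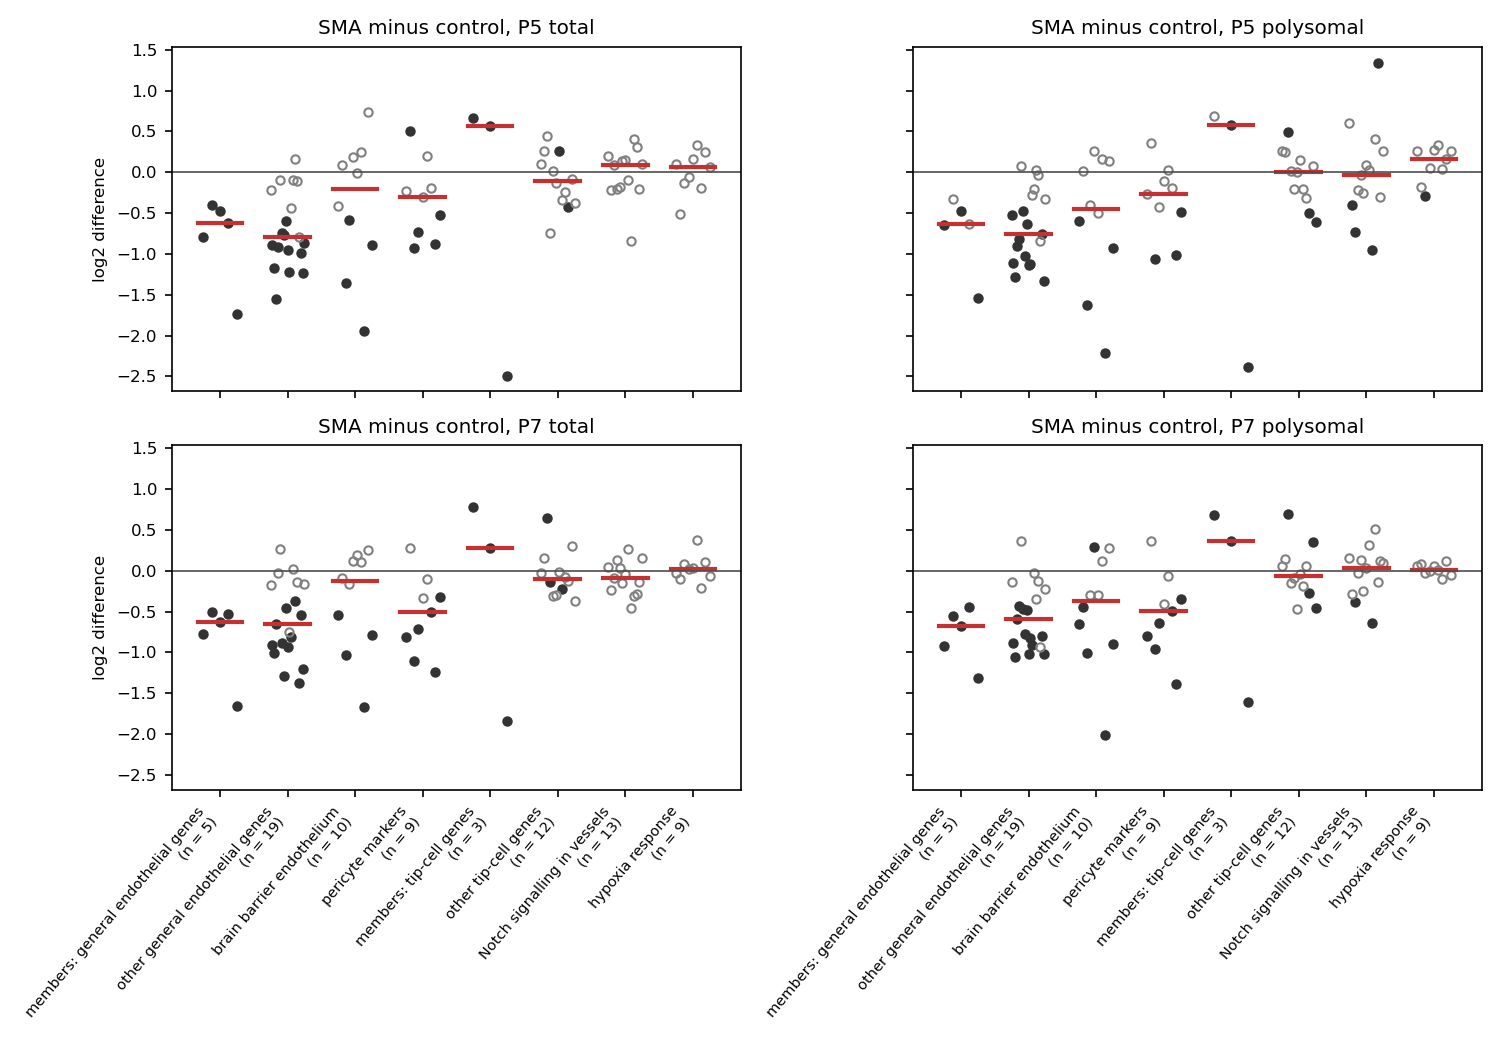
SMA minus control difference (y axis, log2(FPKM + 0.1)) of each tested gene in 8 gene lists (x axis, number of genes in brackets) in the 4 comparisons, with filled points for an unadjusted p under 0.05 in limma, open points for the rest, and a red line at the median of the list. The 19 other general endothelial genes have medians of -0.80 to -0.59, while the 12 other tip-cell, 13 Notch and 9 hypoxia response genes have medians between -0.11 and 0.16.

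Markers of cells around the endothelium were lower in part. Of 9 tested pericyte markers 4, 3, 6 and 6 were called lower, beside 3.89%, 6.82%, 4.7% and 5.38% of all tested genes. Rgs5, Vtn and Higd1b were called lower in all 4 comparisons. Rgs5 (-1.23 ± 0.09, adjusted p = 0.0258) and Higd1b (-1.10 ± 0.07, adjusted p = 0.0189) passed adjustment in total RNA at P7, 2 of 9 where 1 of 19 other general endothelial genes did, while Cspg4, also a gene of oligodendrocyte precursors, was higher in total RNA at P5, and Notch3 and Ndufa4l2 were called in no comparison. The summed pericyte level, of which Rgs5 was the most abundant gene, was 84.1 ± 1.18 FPKM in controls and 56.9 ± 0.898 FPKM in SMA in total RNA at P5, and 81.5 ± 4.41 and 50.5 ± 3.65 FPKM at P7. Vascular smooth muscle markers summed to 14.8 ± 0.113 and 10.7 ± 1.89 FPKM at P5 and to 17.9 ± 1.34 and 11.5 ± 3.49 FPKM at P7. Of their 3 tested genes 0, 2, 2 and 3 were called lower, while all 3 had differences below 0 in each comparison. Of 5 fibroblast markers 3, 2, 4 and 4 were called lower, with Dcn and Lum called lower in all 4 comparisons. Pdgfra, also a gene of oligodendrocyte precursors, was called higher in total RNA at P5. The part of these neighbouring cells in the values of the 10 genes was not tested.

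Markers of other brain cells gave calls in both directions. No astrocyte marker of 5 was called, and Slc1a3, Gfap and Gja1 were the most abundant. Of 5 neuron markers 1, 1, 1 and 0 were called higher and none lower. Of all tested genes 4.36%, 5.65%, 4.84% and 5.35% were called higher and 3.89%, 6.82%, 4.7% and 5.38% lower. Map2 was the gene called in total RNA at both stages, and the call in polysomal RNA at P5 was Tubb3, which is listed at 0 in both control libraries of that group and has group means of 711 to 922 FPKM elsewhere, so no fold is given. For the label of brain tissue, Map2 had group means of 285 to 437 FPKM and Snap25 of 191 to 387 FPKM. Among 5 microglia markers C1qa was called higher in both fractions at P7 and Aif1 in total RNA at P7. P2ry12 was called lower in 3 of 4 comparisons. The summed microglia level was 74.2 ± 4.49 FPKM in controls and 78.0 ± 8.62 FPKM in SMA in total RNA at P7. No platelet marker of 3 was called, with Pf4 the most abundant. Hba-a1 and Hbb-bs, the leading red cell genes, were called in none of the comparisons, while Hba-a2 and Hbb-bt were each called lower in 1. Of the 6 red cell genes 5, 4, 6 and 5 had differences below 0. The choroid plexus markers Ttr and Folr1 were higher at P7 in both fractions.

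Within the groups, the members did not form a single block. With group means subtracted, Pearson's r over the 20 libraries was 0.764 between Kdr and Flt1, 0.636 between Kdr and Cdh5, 0.626 between Aplnr and Kdr and 0.605 between Apln and Esm1. It was 0.137 between Aplnr and Apln, 0.0612 between Angpt2 and Tek and -0.00469 between Aplnr and Pecam1. Libraries of 1 replicate number share a stage and genotype, and all points share the normalization of their library, so these are descriptions. With only stage and fraction means removed, which leaves the genotypes in, the tested genes most like Aplnr were AU021092 (r = 0.962), Tie1 (0.958), Slc39a8 (0.953), Lum (0.952) and Apcdd1 (0.945). The genes most like the mean of the 5 general endothelial genes were Cd93 (0.980), Clec14a (0.980), Tie1 (0.977), Rgs5 (0.969) and Slc39a8 (0.967), so Tie1 and Slc39a8, a zinc and manganese transporter, were in both. Slc39a8 was at 5.54 ± 0.403 FPKM in controls and 2.60 ± 0.163 FPKM in SMA in total RNA at P5. With genotype means removed as well, the gene most like Aplnr was D630003M21Rik (0.781) and the gene most like the general mean was Tmem2 (0.911), and none of the former genes was among the leading 5.

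Smn1, the gene targeted in the model, was at 9.71 and 8.92 FPKM in controls and 9.55 and 10.09 FPKM in SMA in total RNA at P5, and at 13.56, 14.09 and 16.70 FPKM in controls and 11.94, 12.65 and 17.49 FPKM in SMA at P7. A single value for the whole gene does not show which part of it is missing or which reads came from the human transgene, so it does not check the genotypes. By Y-linked genes and Xist, the controls at P5 were 2 males and the SMA samples 1 female and 1 male, and at P7 controls were 2 females and 1 male and SMA samples 1 female and 2 males. The part of sex in the values was not tested. Differences at P5 moved with transcript length, with medians of -0.17, -0.06, 0.04 and 0.17 from the shortest to the longest of 4 equal classes of tested genes in total RNA, whereas in total RNA at P7 all 4 medians were within 0.01 of 0. The 10 genes have longest transcripts of 2097 to 6895 bases.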

How the data were processed

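Total cytoplasmic and polysomal RNA of brains was sequenced as 100 bp reads after TruSeq Stranded Total RNA library preparation. The authors aligned the reads with TopHat2 2.0.14 to GRCm38.p4 with the Gencode M6 annotation and deposited FPKM from Cufflinks 2.2.1, normalized to gene length and to the mapped fragments of each library. The file holds no read counts. Rows were found by symbol, and loci were compared with Gencode M21.

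From there, log2(FPKM + 0.1) was fitted for the 15247 genes averaging 1 FPKM or more with limma 3.58.1 in R 4.3.3 (lmFit, eBayes with a trend), separately for each of 12 comparisons, on the libraries concerned. Calls are at an unadjusted p under 0.05, as in the study, with Benjamini-Hochberg adjusted values over all tested genes beside them. Fold changes on this scale are smaller than FPKM ratios for scarce genes. The fit was tested on simulated data with 200 changed genes, and at a log2 size of 1 it recovered 96.5% of them in total RNA at P5 and 96% at P7. The simulated noise was independent and its spread was set by the level of a gene alone. Real genes of the same level differ in spread, so these shares do not give the recovery in the real data. Members and gene lists were chosen with earlier results of these data known. Genes of the lists were named when called in 1 direction in all 4 SMA comparisons or when among the 3 most abundant, and others were named after their values were seen. The labels do not say whether replicates were separate litters, so p-values measure the spread between these samples. Alternatives were a pseudocount of 1, no filter, equal library medians, 1 model over all 20 libraries, a transcript length correction (lowess span 0.3), leaving out each replicate number and the replicate number as a block.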

Additional observations from a re-analysis of the deposited data

Results flagged for a closer look

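The SMA minus control difference of Aplnr in total RNA was smaller at P7 than at P5, with a log2 difference of differences of 0.65 ± 0.25 by the interaction of genotype and stage in limma (unadjusted p under 0.05, adjusted p = 0.486). The gene was chosen on the differences that make up this interaction, so the value is a description. The mean differences behind it were -2.49 at P5 (2 replicates per genotype) and -1.84 at P7 (3 replicates per genotype), with 1.90 ± 0.0424 and 3.89 ± 0.745 FPKM in SMA (SD). It did not pass adjustment over all tested genes, and 10.1% of them passed the unadjusted threshold in the same interaction. The call was lost in 1 model over all 20 libraries (0.65), with a pseudocount of 1 (0.44) and in 5 of the 10 fits that left out 1 replicate (0.50 to 0.78 over the 10). Groups of 2 or 3 replicates were too small for a test of single outlying libraries.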

How the results depend on the processing

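The differences are drawn from 2 or 3 replicates per genotype and from FPKM without counts, so the counting error of scarce genes such as Esm1 is unknown. Where leaving out a replicate left 1 library in a group, that library was assumed to vary like the others. No SMA minus control difference of the 8 tested members and none of their called values turned direction under any alternative run, but uncalled estimates did. Esm1 and Dll4, below the level for testing, were not part of this check. Over all 12 comparisons 22 of the 96 estimates of the tested members turned under at least 1 alternative. All of these were in the age contrast of polysomal RNA or in the interactions. Of the 8 members, 3 turned in that age contrast, and 8 at P5 and 4 at P7 in the interaction with fraction. In the interaction with stage 4 turned in total and 3 in polysomal RNA. Aplnr turned between ages in polysomal RNA (0.16 to -0.16). In the interaction with fraction it turned from 0.10 to -0.27 at P5 and from 0.22 to -0.37 at P7. Counts of members between SMA and control are a description, and the shares beside them are of all genes tested in the same fit. The cause of the changes below was not tested.

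With a transcript length correction 8 instead of 5 members were called between SMA and control in polysomal RNA at P5. Of all genes 10.1% passed, and 12.5% without it. Between ages in total RNA the correction gave 1 instead of 2 (40.5%, 40.3% without it). The calls of Angpt2 and Pecam1 were both lost, so the 1 was another member. The tip-cell mean relative to the general endothelial mean was 0.691 and 0.609 at P5 with this correction. With a pseudocount of 1 this mean was 0.389, 0.3895, 0.416 and 0.464, and without Aplnr it was 1.15, 1.06, 1.11 and 1.07. With 1 model over all 20 libraries, 2 members instead of 1 differed between fractions at P5 (36.7%) and 5 instead of 3 between ages in polysomal RNA (50.4%). The interaction of genotype and stage in total RNA gave 0 instead of 1 with that model (11.8%) and with the pseudocount of 1 (10.1%).

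Leaving out each replicate number gave 3 to 7 and 2 to 4 called members at P5 and 6 to 8 and 5 to 8 at P7 in total and polysomal RNA. The shares of all genes were 2.63% to 28.3% and 5.19% to 19.8% at P5 and 6.72% to 11.2% and 7.25% to 13.5% at P7, so the background moved as well. The lowest counts came without either control at P5 (3), without SMA replicate 1 in polysomal RNA at P5 (2) and without control replicate 3 or SMA replicate 1 in polysomal RNA at P7 (5). Of the other general endothelial genes, 6 to 14 and 6 to 10 were lower at P5 and 9 to 13 and 11 to 13 at P7. Between fractions of late controls 0 to 1 members were called, the 1 without control replicate 3 (16.1% to 18.4% of all genes), and between ages 1 to 3 in total (27% to 40.5%) and 1 to 4 in polysomal RNA (28.6% to 40.9%). The interaction with fraction gave 0 to 1 at P5 (1.97% to 6.24%) and 0 to 0 at P7 (1.81% to 4.74%), and that with stage 0 to 1 in total (5.22% to 27.7%) and polysomal RNA (7.87% to 24.4%). The relative tip-cell mean was 0.539 to 0.634 and 0.448 to 0.585 at P5 and 0.537 to 0.795 and 0.600 to 0.785 at P7, chosen as an alternative after seeing the data. Fractions of early controls could not be compared without either replicate.

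With the replicate number as a block, 5 instead of 8 members were called between SMA and control in total RNA at P5 (4.77% of all genes), and 1, Tek, instead of 0 in the interaction with fraction at P7 (4.32%). Between fractions of early controls 1 member was called as before, but Angpt2 in place of Apln (20.5%). The numbers did not pair the samples by their deviations from group means, with correlations of -0.0391 to 0.109 between fractions and -0.0902 to 0.0327 between genotypes, although the sex read from both libraries matched for 10 of 10 numbers.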
